A study of Mus musculus with 17 samples.

Results

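Fat that grew from leptin-knockout cells under the skin of the chest was compared with the subcutaneous fat that mice make themselves. Of 17 samples labelled in the series, 16 are covered by the table analysed here, and 5 of these entered the comparison: 3 implants of knockout (KO) cells, named MKF1, MKF2 and MKM2, and 2 libraries of endogenous subcutaneous fat, ESM1 and ESM2. They were chosen by the codes in the labels. The sample coded ESF was not analysed here. MKM1, which carries the code of a male KO implant, was left out because its profile is that of visceral fat, and EVFN1 was left out of the fit because its profile is that of a KO implant.

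Per the labels, the implants came from mouse embryonic fibroblasts (MEF) of pups homozygous for a leptin knockout, whose allele is not given. The cells were injected at the sternum into hosts of a type named LD at 3 to 5 weeks of age, and grew into tissue resembling fat. MKF stands for implants in females with knee surgery and MKM for implants in males with knee surgery, although the design text calls the hosts male. ESM stands for endogenous subcutaneous fat of males with surgery, labelled Sub in place of a genotype, and neither the host nor the body site of this fat is given. Surgery, destabilization of the medial meniscus, was at 16 weeks, and tissue was taken at 28 weeks. The implants were therefore compared with fat that differed from them in donor cells, in site and possibly in host, all of which cannot be told apart here. MKF1 and MKF2 also differed from this fat in sex code, and only MKM2 shared the male code of ESM1 and ESM2. The labels do not tie libraries to animals. The p-values therefore reflect how far libraries varied within their groups, over the 14 libraries of the fit and not only the 5 compared. That variation may be technical in part.

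White fat stores triglyceride in adipocytes, which release it as fatty acids when the sympathetic nerves act on beta-adrenergic receptors, and which secrete hormones such as leptin, adiponectin and the complement protease adipsin. Between the adipocytes lie vessels, fibroblast-like progenitors and macrophages. Macrophages that take up lipid from dying adipocytes carry the receptor TREM2 and much lysosomal enzyme, and can fuse into giant cells. Regional identity is kept in connective tissue by Hox genes, which are set in the embryo along the body axis.

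The 5 libraries held 17558715 to 23296250 reads. The labels name the tissue as ganglia and the cell type as sensory ganglion, but 5 adipocyte markers summed to 10846 to 19135 reads scaled to library size (counts per 1000000, CPM) and 5 sensory neuron markers to 2.79 to 12.8 CPM. Xist, of the inactive X chromosome, was at 451 and 517 CPM in MKF1 and MKF2 and at 0.057 to 3.77 CPM in the other 3 libraries, while Ddx3y of the Y chromosome was at 0 in MKF1 and MKF2 and at 73.5 to 89.7 CPM in the others, so sex by these genes followed the codes. Other tissue was present unevenly. Summed over 4 markers, skeletal muscle stood at 13402 CPM in ESM2 and 131 CPM in ESM1, at 1940 CPM in MKF2 and at 72.6 and 72.2 CPM in MKF1 and MKM2. The 3 liver markers stood at 1105 (MKF1), 36.6 (MKF2) and 6533 CPM (MKM2) against 27.2 and 25.7 CPM, and the 2 B cell markers at 63.2, 1.93 and 8.91 against 1.65 and 1.54 CPM. No marker of any of the 14 cell types was at 0 in all 5 libraries. The part of these tissues in the results below was not tested, but the main lists are also counted without ESM2. Genes were compared by their log2(CPM + 0.5), KO implants minus subcutaneous fat, a scale that compresses the changes of low genes. Values are given in the order MKF1, MKF2, MKM2 and then ESM1, ESM2. A gene passes, or is called, at an adjusted p under 0.05 in limma, and keeps its call without any 1 of the 5 libraries unless its paragraph says otherwise.

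**Figure D1:**
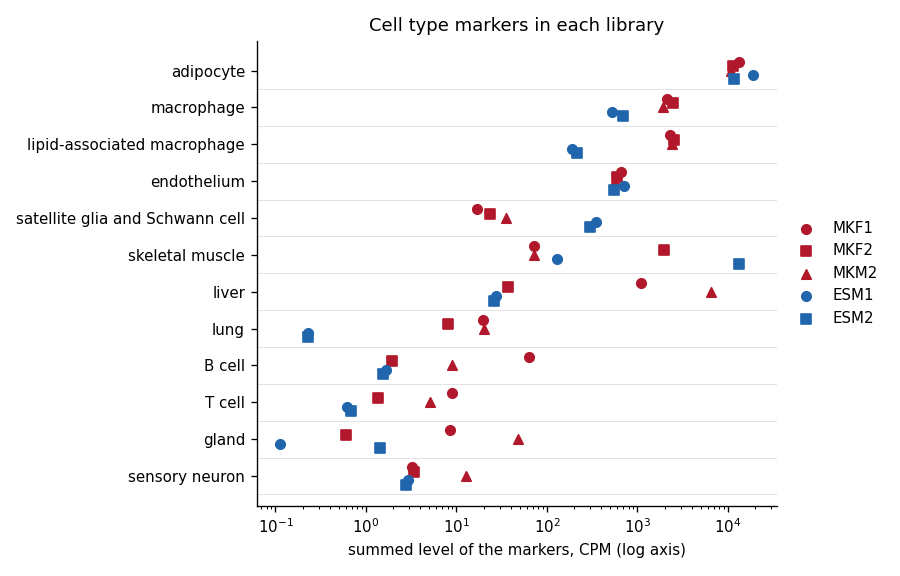
Summed CPM (log axis) of the marker genes of 12 cell types in each of the 5 libraries, KO implants in red and subcutaneous fat in blue. Muscle markers reach 13402 CPM in ESM2, liver markers 6533 CPM in MKM2, and macrophage markers lie at 1921 to 2494 CPM in the KO implants against 527 and 687 CPM in subcutaneous fat.

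Leptin itself (chromosome 6, 29060220 to 29073877, plus strand, mm10) was read at 1644, 1726 and 1336 against 1137 and 516 CPM. Its transcript was abundant in implants from KO donors, and each implant stood above both fat libraries. Without the allele, this level does not check the genotype. The log2 fold change was 1.02 (SE 0.31, adjusted p = 0.0453), and this call was lost without MKF1, MKF2, MKM2 or ESM2 (adjusted p = 0.116, 0.11, 0.063 and 0.302), with edgeR (0.0979) and with median-of-ratios scaling (0.0657).

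Across the genome the KO implants differed widely from subcutaneous fat. Of 17871 genes tested with limma, 3547 passed an adjusted p of 0.05 (19.8%), 2472 higher in the KO implants (13.8%) and 1075 lower (6.02%). All 3547 had no overlap between the 3 implants and the 2 fat libraries, against 9575 of all tested genes (53.6%). By 4-fold or more, 495 genes were higher and 145 lower. The median log2 fold change of all tested genes was 0.11, and scaling by median-of-ratios size factors moved it by -0.10. With that scaling 2158 genes were higher and 1509 lower, so that 58.9% of the called genes were higher in place of 69.7%. Without ESM2, the muscle-rich library, 2256 genes passed, of which 1938 were among the 3547, and with MKM2 as the only implant, which matches the sex of the ESM libraries, 1286 passed, of which 954 were among them. Without MKF1 2281 passed. With MKM1 kept as a further KO implant 146 genes passed, all of them among the 3547, and with EVFN1 kept in the fit 1486 passed. The calls of 1422 genes (1110 higher, 312 lower) held with each of the 5 libraries left out in turn, with edgeR, with DESeq2 and with median-of-ratios scaling.

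**Figure D2:**
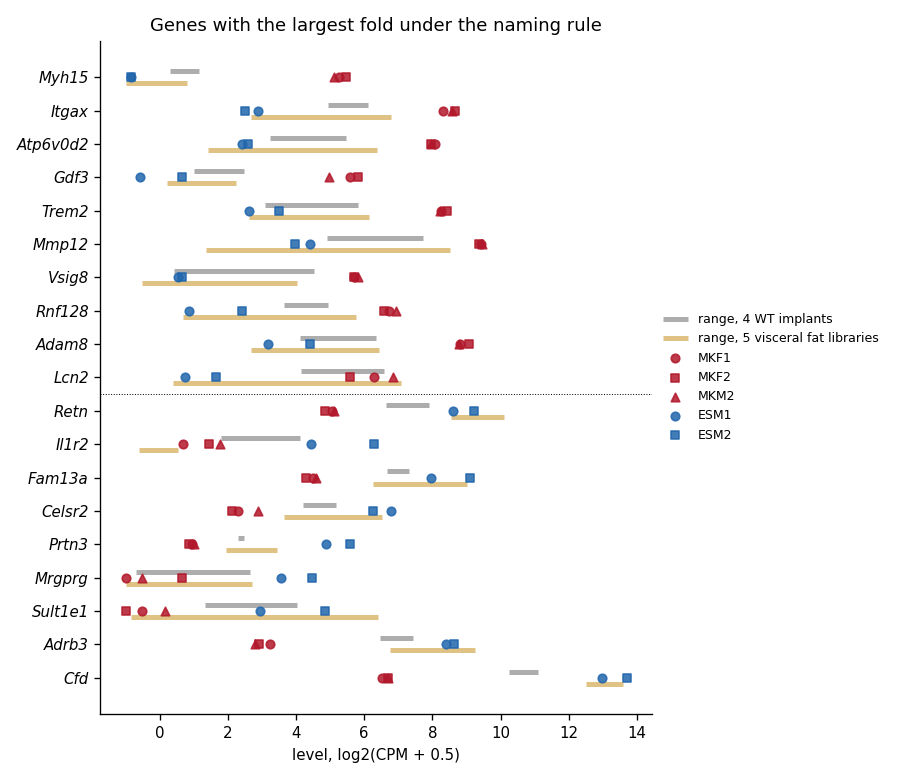
Levels on the log2(CPM + 0.5) scale of 19 of the 10 rising and 10 falling genes with the largest fold under the naming rule, with each KO implant in red, each subcutaneous fat library in blue, and bars for the range over WT implants (grey) and visceral fat (tan). The rule requires groups that do not overlap, so the KO implants lie on 1 side of both subcutaneous fat libraries for all 19. Cfd is at 91.4 to 104 CPM against 8046 and 13269 CPM.

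The leptin receptor gene Lepr was at 6.04, 6.14 and 18.4 against 5.73 and 6.32 CPM and highest in MKM2, with the groups overlapping (adjusted p = 0.498). Of 8 genes of leptin signalling Lep and Ptpn1 passed, 1 of them without ESM2 and none with MKM2 as the only implant. Ptpn1, a phosphatase that acts on the kinase of the leptin receptor, was at 146, 148 and 130.0 against 64.7 and 79.5 CPM (0.97, SE 0.16, adjusted p = 0.00278). The feedback inhibitor gene Socs3 was at 22.5, 32.1 and 22.1 against 19.7 and 87.3 CPM, with ESM2 above all other libraries (adjusted p = 0.407).

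Complement factor D, or adipsin, a serine protease that adipocytes secrete and that starts the alternative complement pathway, had the largest fall under the naming rule. Cfd (chromosome 10, 79890853 to 79892655, plus strand) was at 91.4, 104 and 102 against 8046 and 13269 CPM, which gives -6.70 in log2 fold change (SE 0.35, adjusted p = 2.11e-05). The 3 implants lay close together and far under both fat libraries. Other products of mature adipocytes fell with it. Adrb3, the beta-3 adrenergic receptor through which nerves trigger fat release, was at 8.99, 7.08 and 6.52 against 339.7 and 396 CPM (-5.53, SE 0.58, adjusted p = 0.000263). The resistin gene Retn was at 32.6, 28.5 and 34.2 against 385 and 598 CPM (-3.90), and Car3, a carbonic anhydrase abundant in fat, at 2920, 2462 and 2551 against 13775 and 13034 CPM (-2.35). Adiponectin, the insulin-sensitizing hormone of adipocytes, fell less, with Adipoq (chromosome 16, 23146536 to 23158028, plus strand) at 809.9, 719 and 729 against 2418 and 1981 CPM (-1.54, SE 0.25, adjusted p = 0.00237).

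These genes belong to a list of 24 tested genes of white adipocyte identity, of which 11 fell and Lep rose, with a median log2 fold change of -0.80. The fall was not shared by the whole list. Pparg, the master regulator of fat cells, was at 126, 111 and 105 against 229 and 122 CPM, and 2 of the implants were under both fat libraries (adjusted p = 0.158). Fabp4, the fatty acid carrier, was at 7128, 5623 and 5820 against 9546 and 5639 CPM, and Cd36, the fatty acid transporter, at 4934, 4176 and 4382 against 3534 and 1958 CPM. The groups overlapped for Fabp4 and not for Cd36 (adjusted p = 0.521 and 0.0671). Acvr1c, a receptor for activins in fat cells (-1.76, adjusted p = 0.00205), and Nnat, neuronatin (-1.53, adjusted p = 0.00185), fell. The call of Adig was lost without ESM1 (adjusted p = 0.0929). Without ESM1 8 members fell and 2 rose, with a median of -0.30. Without ESM2, 14 members fell and none rose, with a median of -1.20, and with MKM2 as the only implant 7 fell. Beside this list, the 5 adipocyte markers summed to 10846 to 13227 CPM in the implants and to 19135 and 11734 CPM in ESM1 and ESM2, and in bulk tissue fewer cells of a type and less RNA per cell cannot be told apart.

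Genes for using stored fat fell in part. Of 14 genes of lipolysis and adrenergic signalling 5 fell and none rose, and all 14 had negative values. The number that fell was 5 without ESM2, 3 without MKF1, 2 without ESM1 and 2 with MKM2 as the only implant. Pnpla2, the lipase that cuts the first fatty acid from triglyceride, was at 1489, 1212 and 1171 against 3021 and 2416 CPM (-1.07, SE 0.23, adjusted p = 0.00915), and Lipe, hormone-sensitive lipase, at 1017, 853 and 794 against 1987 and 1239 CPM (-0.83, adjusted p = 0.0394). The call of Pnpla2 was lost without ESM1 (adjusted p = 0.0626), and that of Lipe without ESM1, MKF1, MKF2 or MKM2 (up to 0.241). Pde3b, which breaks down cyclic AMP on insulin's signal, was at 247, 183 and 177 against 502 and 424 CPM (-1.20, adjusted p = 0.00376). Hcar2, a receptor that restrains lipolysis, was at 12.9, 13.6 and 11.9 against 25.5 and 25.9 CPM, but its call was lost without MKF1, MKM2, ESM1 or ESM2 (adjusted p up to 0.0997). The beta-1 receptor gene Adrb1 was at 7.15, 5.92 and 4.33 against 8.85 and 6.38 CPM and did not pass (adjusted p = 0.464).

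Genes on insulin's path to glucose uptake fell in part. Of 14 genes 5 fell and none rose, with a median of -0.68. The insulin receptor gene Insr was at 103, 94.7 and 104 against 222 and 159.8 CPM (-0.90, SE 0.16, adjusted p = 0.00411), its docking protein gene Irs1 at 14.6, 15.6 and 13.5 against 47.02 and 52.5 CPM (-1.74, adjusted p = 0.00415), and Slc2a4, the insulin-responsive glucose transporter GLUT4, at 76.7, 66.6 and 65.9 against 169 and 237 CPM (-1.52, adjusted p = 0.00455). For these 3 genes every implant was under both fat libraries. The kinase gene Akt2 and Tbc1d4, whose protein holds back GLUT4 vesicles, also fell, but Akt2 lost its call without any of ESM1, MKF1, MKF2 and MKM2 (adjusted p up to 0.213) and Tbc1d4 without any of ESM2, MKF1, MKF2 and MKM2 (up to 0.287) and with median-of-ratios scaling (0.0547). Without ESM2 7 of the 14 fell, without MKF1 or MKF2 3, and with MKM2 as the only implant none passed.

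Of 16 genes of fatty acid synthesis only Acacb, the acetyl-CoA carboxylase linked to mitochondria, fell, beside 6.02% of all tested genes. It was at 63.1, 69.1 and 61.6 against 199 and 289.9 CPM (-1.89, SE 0.46, adjusted p = 0.018), and the call was lost without MKF1 (0.0527) or ESM2 (0.114). The list had a median of -0.78, and its genes parted the 2 fat libraries. Fatty acid synthase, Fasn, was at 1153, 1116 and 906 against 1778 and 7065 CPM (adjusted p = 0.185), and the desaturase gene Scd1 at 4170, 2712 and 3357 against 15323 and 15126 CPM (adjusted p = 0.0755). Thrsp, a lipogenic regulator, was at 74.7, 70.9 and 105 against 202 and 765 CPM (adjusted p = 0.0668). ESM2 was above ESM1 by several fold for Fasn and Thrsp, while all implants were under both for the 3 genes.

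Genes of brown and beige fat moved in both directions. Of 14, 6 rose and 3 fell, against 3 and 1 without ESM2 or without ESM1 and 2 and 1 without MKF1. Ucp1, the uncoupling protein that makes heat, was at 18.2, 7.81 and 13.4 against 0.284 and 0 CPM, low in the implants and at or near 0 in subcutaneous fat (4.37, SE 0.56, adjusted p = 0.000733). Zic1, a transcription factor of classical brown fat, was at 4.11, 4.68 and 6.01 against 0.227 and 0.342 CPM (2.78, adjusted p = 0.000524). The regulators Prdm16 (21.3, 17.2 and 18.7 against 38.2 and 35.6 CPM) and Ebf2 (15.8, 20.3 and 19.3 against 45.1 and 31.6 CPM) fell by about 1 on the log2 scale, with adjusted p = 0.0158 and 0.0157. Only Ucp1 and Zic1 kept their calls without any 1 library. The calls of Prdm16, Ebf2, Ppargc1a, Dio2, Elovl3, Otop1 and Slc25a20 were lost in 2 to 4 of the 5 leave-outs (adjusted p up to 0.181 for Ppargc1a without ESM2 and 0.147 for Dio2 without ESM1).

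Genes of lipid-laden macrophages rose almost as a block. Of 18 genes of lipid-associated macrophages 16 rose and none fell, with a median log2 fold change of 2.61, where 13.8% of all tested genes rose and the median of all was 0.11. Trem2 (chromosome 17, 48346401 to 48354147, plus strand), the lipid receptor that marks these cells, was at 306, 345 and 300.5 against 5.62 and 10.8 CPM, or 5.25 in log2 fold change (SE 0.38, adjusted p = 7e-05). Gpnmb, a lysosomal membrane glycoprotein, was at 1829, 2023 and 1943 against 114 and 145 CPM (3.90, SE 0.35, adjusted p = 0.000127). Itgax (chromosome 7, 128129547 to 128150657, plus strand), the integrin CD11c of macrophages and dendritic cells, was at 319.9, 403 and 377 against 6.86 and 5.18 CPM (5.82, SE 0.32, adjusted p = 2.66e-05). The lowest implant exceeded the higher fat library by more than 10-fold in all 3.

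Genes for the digestion and storage of lipid were among those that rose. Lipa, the lysosomal acid lipase that frees cholesterol and fatty acids, was at 836, 796 and 750.5 against 99.7 and 81.8 CPM (3.13, adjusted p = 9.2e-05). Plin2, the coat protein of lipid droplets outside mature adipocytes, was at 1590, 1568 and 1518 against 398 and 303 CPM (2.17, adjusted p = 0.000187), and the lectin gene Lgals3 at 1563, 1721 and 1538 against 102 and 158 CPM (3.65, adjusted p = 6e-05). Mmp12, the macrophage elastase, was at 684, 653 and 700.2 against 20.6 and 15.2 CPM (5.22, SE 0.63). Apoe and Lgals1, which many other cells of fat also express, did not pass (adjusted p = 0.565 and 0.116, with Apoe at 4108, 4720 and 6351 against 5515 and 6114 CPM). Without ESM2 14 of the 18 rose and with MKM2 as the only implant 13. Cd9 lost its call without MKM2, ESM1 or ESM2 (adjusted p up to 0.101), Fabp5 without ESM2 (0.0527) and Spp1, osteopontin, without ESM1 (0.0618).

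Genes of osteoclasts and multinucleate giant cells rose too, with exceptions. Of 13 tested, 9 rose and 2 fell, as without ESM2, with a median of 1.59, and all 11 kept their calls without any 1 library. Atp6v0d2, a proton pump subunit needed for cell fusion, was at 270.3, 250.3 and 250.2 against 4.88 and 5.58 CPM (5.49, SE 0.30, adjusted p = 2.66e-05), and Dcstamp, a fusion receptor, at 13.6, 12.7 and 11.8 against 0.454 and 0.342 CPM (3.88, adjusted p = 0.000211). Tm4sf19, a membrane protein of osteoclasts, was at 34.5, 39.1 and 32.4 against 0.567 and 0.740 CPM (4.96, adjusted p = 1.1e-05). Tnfrsf11a, the RANK receptor (2.51), and Ctsk, the protease cathepsin K (1.68), rose as well. The gelatinase gene Mmp9 went the other way, at 5.80, 7.04 and 5.75 against 55.9 and 66.8 CPM (-3.21, SE 0.26, adjusted p = 7.94e-05), as did Acp5, the tartrate-resistant phosphatase used to stain osteoclasts, at 150.0, 139 and 130.0 against 254 and 253 CPM (-0.86, adjusted p = 0.00352). Nfatc1, the main regulator of osteoclast formation, did not pass (adjusted p = 0.768).

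Genes used to mark resident macrophages split. Of 17, 6 rose and 6 fell, with a median of -0.69. Among those that rose were the growth factor receptor gene Csf1r, at 669, 818 and 633 against 252 and 277 CPM (1.41, adjusted p = 0.000328), Adgre1 (F4/80), at 390.2, 428 and 346 against 47.6 and 57.5 CPM (2.88, adjusted p = 8.36e-05), and Vsig4, a complement receptor of resident macrophages, at 5.46, 13.9 and 8.60 against 1.13 and 0.968 CPM (2.57, adjusted p = 0.00449). Those that fell were Timd4, Retnla, Lyve1, Cd163, Cd209d and Cd209f, while Folr2, Mrc1 and Cbr2, also used as resident markers, did not pass. Timd4, a receptor for dying cells, was at 1.55, 1.42 and 0.305 against 7.60 and 9.74 CPM (-2.63, adjusted p = 0.00441), and Retnla, a marker of alternative activation, at 16.4, 73.3 and 26.9 against 349 and 244 CPM (-3.17, adjusted p = 0.00408). For Timd4 MKM2 was the lowest implant, and for Retnla MKF2 was the highest. Lyve1 was at 2.32, 26.1 and 8.40 against 51.3 and 95.96 CPM and the lectin gene Cd209f at 2.13, 30.6 and 6.72 against 64.5 and 77.1 CPM, with MKF2 highest of the implants and still under both fat libraries. Lyve1, Cd163, Cd209f and Cd209d each lost their calls without any of MKF1, MKM2, ESM1 and ESM2 (adjusted p up to 0.163, 0.0919, 0.118 and 0.172, each without ESM2), and Lyve1, Cd209f and Cd209d also with edgeR, so without ESM2 6 members rose and 2 fell. Without MKF1 5 rose and 2 fell, and without ESM1 4 rose and 3 fell. Siglec1 lost its call without MKF1, MKF2, ESM1 or ESM2 (up to 0.108), and Clec10a without MKF2 or ESM1 (up to 0.132), with edgeR (0.0638) and with median-of-ratios scaling (0.0716).

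The lysosome, the acid compartment where engulfed material is digested, changed almost throughout. Of 35 genes 33 rose, none fell and all 35 had positive values, with a median of 1.01. Gla, which removes galactose from lipids, was at 52.1, 51.1 and 50.1 against 6.81 and 8.49 CPM (2.67, SE 0.23, adjusted p = 9.12e-05), and Gusb, which digests glycosaminoglycans, at 360.5, 405 and 346 against 77.5 and 76.6 CPM (2.25, adjusted p = 7.97e-05). The implants stood close together for both genes. Among proteases, cathepsin S (Ctss), which also trims antigens, was at 849, 849 and 814 against 68.5 and 104 CPM (3.30, adjusted p = 0.000127) and cathepsin D (Ctsd) at 2305, 2216 and 1922 against 577 and 521 CPM (1.96, adjusted p = 0.000524). Of the proton pump that acidifies the compartment, Atp6v1b2 was at 449, 449 and 381 against 124 and 122 CPM (1.78, adjusted p = 7.14e-05) and Atp6v1a at 292, 282 and 259 against 99.4 and 84.5 CPM (1.59, adjusted p = 9.12e-05). The number that rose was 24 without ESM2, 28 without ESM1, 28 with median-of-ratios scaling and 21 with MKM2 as the only implant. The transcription factor gene Tfeb itself rose by 0.75, but its call was lost without MKF1, MKF2, ESM1 or ESM2 (adjusted p up to 0.17), with edgeR (0.0833), with DESeq2 (0.0578) and with median-of-ratios scaling (0.0941), and its relatives Mitf and Tfe3 lost theirs without ESM2 (0.0711 and 0.0656).

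Many lysosomal genes carry, near their start sites, an element bound by TFEB and related factors, whose core is CACGTG. In RefSeq promoters (GRCm38.p6, 250 bases before to 50 after the start), 27 of the 35 lysosome genes were found, and 9 of them held CACGTG (33.3%), against 2187 of 27025 genes overall (8.09%). The motif reads the same on both strands, so 1 search covers both. Of the lipid-associated macrophage genes 1 of 14 held it (Plin2, 7.14%) and of the osteoclast and giant cell genes 1 of 9 (Clcn7, 11.1%). A match is a description of these letters and not of binding. The stretches below, each 46 bases from the strand of its gene with CACGTG in capitals, show the element before 6 genes that rose, with the motif in the middle of each centred 33 to 191 bases before the start.
Atp6v1a (chr16:44139365-44139410, minus strand): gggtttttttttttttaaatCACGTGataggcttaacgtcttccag
Gla (chrX:134601174-134601219, minus strand): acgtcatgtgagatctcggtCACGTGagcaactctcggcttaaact
Atp6v0b (chr4:117887340-117887385, minus strand): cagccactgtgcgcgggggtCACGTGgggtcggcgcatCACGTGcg
Ctsd (chr7:142387900-142387945, minus strand): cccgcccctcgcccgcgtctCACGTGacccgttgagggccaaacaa
Lamp1 (chr8:13159096-13159141, plus strand): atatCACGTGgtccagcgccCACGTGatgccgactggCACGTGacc
Mcoln1 (chr8:3500428-3500473, plus strand): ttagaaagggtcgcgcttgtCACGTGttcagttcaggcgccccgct

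The values of these 6 genes followed the list. Their log2 fold changes were 2.67 for Gla, 1.96 for Ctsd, 1.59 for Atp6v1a, 0.97 for the proton pump gene Atp6v0b, 0.84 for the membrane protein gene Lamp1 and 0.62 for the calcium channel gene Mcoln1. Mcoln1 was at 68.8, 75.5 and 71.7 against 54.4 and 40.1 CPM, and its call was lost without MKF2, MKM2 or ESM2 (adjusted p up to 0.153). Genes whose promoters lacked the letters rose as well, Ctss and Gusb among them.

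Cholesterol handling changed at the points of storage and export. Of 20 genes 4 rose and 1 fell, with and without ESM2, beside 13.8% and 6.02% of all tested genes. Soat1, which esterifies cholesterol for storage, was at 130.3, 122 and 129.7 against 19.5 and 21.5 CPM (2.61, SE 0.26, adjusted p = 0.000189), and the exporter gene Abcg1 at 210.0, 222 and 194 against 74.4 and 40.5 CPM (1.91, adjusted p = 0.000915). Fdft1, squalene synthase, was at 22.5, 17.4 and 25.6 against 54.3 and 59.97 CPM (-1.38, adjusted p = 0.000549), under both fat libraries. The call of Dhcr7, of the last step of synthesis, was lost without ESM1 (0.0887). The exporter gene Abca1 was at 519, 523 and 474 against 486 and 337 CPM and did not pass (adjusted p = 0.326).

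**Figure D3:**
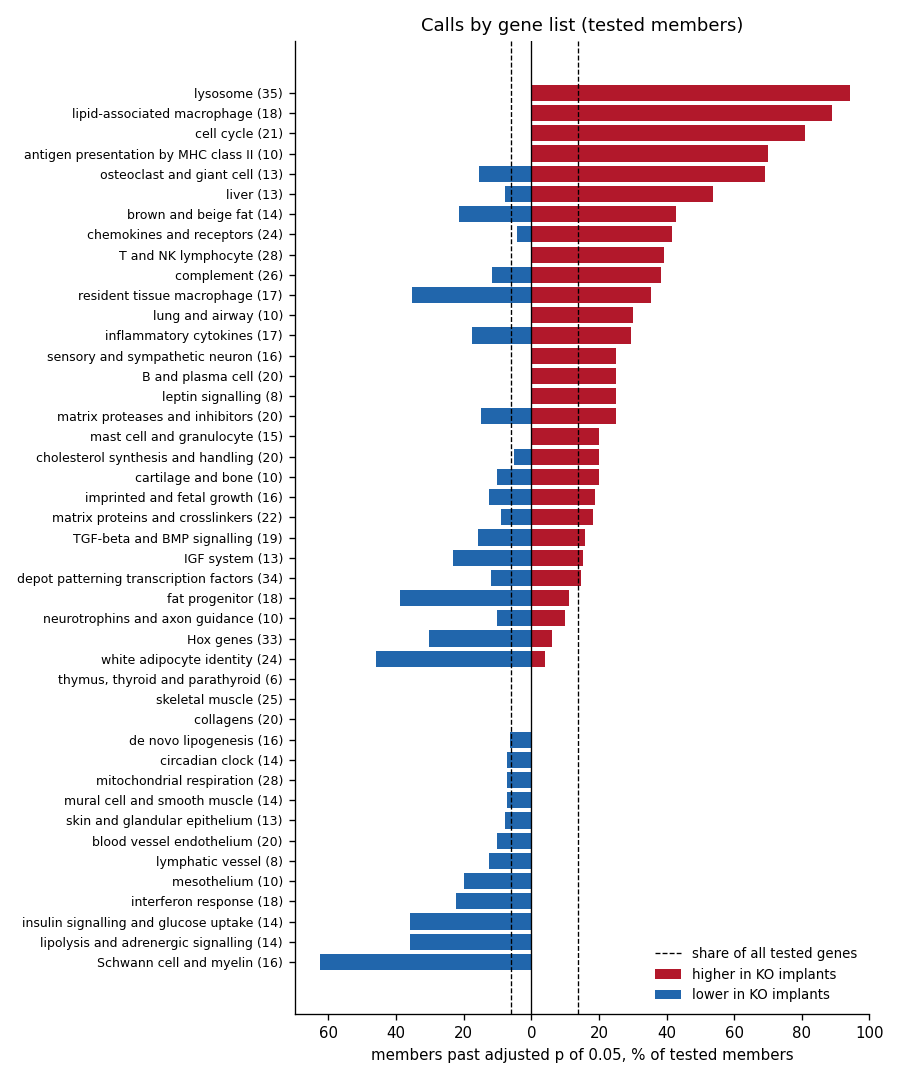
Share of the tested members of each gene list that were higher (red, right) or lower (blue, left) in KO implants than in subcutaneous fat, with tested members in brackets and dashed lines at the shares of all tested genes, 13.8% and 6.02%. The lysosome list stands at 33 of 35 higher and the Schwann cell list at 10 of 16 lower, while no collagen or skeletal muscle gene passed.

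Signals that draw and arm immune cells changed selectively. Of 24 chemokine and receptor genes 10 rose and Cxcl13 fell, with a median of 0.55, and the same numbers passed without ESM2, while 5 rose without ESM1 and 4 with MKM2 as the only implant. Ccl3, which draws monocytes, was at 7.54, 5.75 and 4.89 against 0.170 and 0.399 CPM (3.06, SE 0.35, adjusted p = 0.000374) and Ccl9 at 309.9, 380.4 and 337 against 61.4 and 118 CPM (2.00, adjusted p = 0.000917), while the receptor gene Cxcr4 rose by 2.36. Cxcl13, which draws B cells, was at 3.67, 2.40 and 3.56 against 26.04 and 36.1 CPM (-3.09, adjusted p = 0.0048), lower in every implant. Ccl2, the main monocyte attractant, was at 9.71, 13.8 and 10.1 against 4.31 and 12.4 CPM, and its groups overlapped (adjusted p = 0.346). The calls of Ccl4, Ccl5 and Ccl6 were lost without ESM1 (adjusted p = 0.0632, 0.101 and 0.101), that of Cxcl16 without ESM1 or ESM2 (up to 0.0779), and that of Ccl22 without MKF1, MKM2, ESM1 or ESM2 (up to 0.121).

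Among 17 genes of inflammatory cytokines and their control 5 rose and 3 fell. Il1rn, the natural antagonist of interleukin-1, was at 34.7, 33.3 and 36.6 against 0.908 and 4.04 CPM (3.81, SE 0.47, adjusted p = 0.000597), and Tgfb1, the transforming growth factor, at 307, 308 and 235 against 96.3 and 87.5 CPM (1.61, adjusted p = 0.000189). Tnf was low in all libraries, at 2.42, 2.06 and 2.44 against 0.397 and 0.114 CPM, and higher in each implant (1.92, adjusted p = 0.000596). Il1r2, the decoy receptor for interleukin-1, was at 1.11, 2.23 and 2.90 against 21.2 and 77.97 CPM (-4.06, adjusted p = 0.00119), and Ptgs2, which starts prostaglandin synthesis, at 0, 0.129 and 0.356 against 1.76 and 4.10 CPM (-2.32, adjusted p = 0.00452). The call of Il18, which fell, was lost without MKF1, MKF2, MKM2 or ESM2 (up to 0.21). Il1a, Il1b and Il6 were too low to be tested. Of 18 interferon response genes none rose and 4 fell, with 17 of 18 values negative. Ifit1 was at 4.78, 4.38 and 4.07 against 20.6 and 14.6 CPM (-1.86, adjusted p = 0.00278) and the regulator gene Irf7 at 21.6, 19.1 and 20.5 against 41.1 and 76.4 CPM (-1.44, adjusted p = 0.00577), with Irf7 highest in ESM2. The call of Usp18 was lost without ESM1 (0.0976), that of Gbp3 with each of the 5 libraries left out (up to 0.166), and 2 of the 18 fell without ESM1 and 6 with median-of-ratios scaling.

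Complement genes moved in both directions. Of 26, 10 rose and 3 fell, and without ESM2 9 rose and 3 fell. Among those known from macrophages, the C3a receptor gene C3ar1 was at 236, 254 and 225 against 21.6 and 30.9 CPM (3.18, SE 0.25, adjusted p = 7.42e-05), the C5a receptor gene C5ar1 at 75.8, 88.1 and 70.7 against 17.4 and 28.99 CPM (1.77, adjusted p = 0.000464) and C1qb of the recognition molecule C1q at 611, 774 and 608 against 138 and 240.2 CPM (1.86, adjusted p = 0.000844). Cfd fell as given above. C7, a part of the membrane attack complex, was at 8.94, 13.5 and 28.3 against 172 and 292 CPM (-3.85, adjusted p = 0.0008) and C2, of the classical convertase, at 9.57, 9.27 and 13.2 against 30.5 and 43.5 CPM (-1.74, adjusted p = 0.00177). The central component C3 was at 1898, 2302 and 2955 against 2285 and 3167 CPM and overlapped (adjusted p = 0.603). Hc, the gene of C5, was at 19.8, 6.27 and 92.3 against 0.908 and 0.854 CPM (4.08, adjusted p = 0.00975), in the same order over the implants as the liver markers, and its call was lost without ESM2 (0.0546). The call of C1qa was lost without ESM1 (0.0556).

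Some genes of antigen presentation and of lymphocytes rose, few of them in every leave-out. Of 10 genes of the MHC class II pathway 7 rose and none fell, with all 10 values positive. H2-DMb1, which helps load peptides, was at 126, 117 and 102 against 35.05 and 28.9 CPM (1.83, SE 0.28, adjusted p = 0.00206) and the invariant chain gene Cd74 at 2121, 1893 and 1603 against 1022 and 996 CPM (0.88, adjusted p = 0.0138). Only H2-DMb1 and H2-DMa kept their calls without any 1 library. Cd74 lost its call without MKF1, ESM1 or ESM2 (up to 0.0666), H2-Aa without MKF1 or ESM2 (up to 0.0749), and H2-Ab1, H2-Eb1 and Cd86 without any of MKF1, MKF2, ESM1 and ESM2 (up to 0.127, 0.109 and 0.174). These genes share close copies, so reads may be split among them. Without ESM2 2 of the 10 rose, without MKF1 2 and without ESM1 4, and none did with MKM2 as the only implant.

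Of 28 T and NK lymphocyte genes 11 rose, with a median of 1.66 and few reads. The T cell receptor gene Trac was at 12.3, 3.05 and 6.42 against 0.737 and 0.513 CPM (2.60, SE 0.49, adjusted p = 0.0054) and Cd4 at 9.90, 3.22 and 9.67 against 0.794 and 1.42 CPM (2.22, adjusted p = 0.0109), with MKF2 lowest of the implants. Of 20 B and plasma cell genes 5 rose. Cd22, an inhibitory receptor of B cells, was at 47.8, 20.8 and 19.96 against 0.567 and 0.626 CPM (4.65, SE 0.43, adjusted p = 0.000141), and Sdc1, a proteoglycan that marks plasma cells and is made by other cells too, at 88.4, 92.4 and 122 against 31.6 and 34.2 CPM (1.59, adjusted p = 0.00249). Cd79a, of the B cell receptor, was at 46.6, 1.16 and 6.62 against 1.19 and 1.31 CPM, high in MKF1 alone, and did not pass (adjusted p = 0.218). Cd22 did not follow the 2 B cell markers in MKF2. There Cd22 was at 20.8 CPM, while the markers summed to 1.93 CPM, beside 1.65 and 1.54 CPM in ESM1 and ESM2. Only Trac, Cd22 and Sdc1 kept their calls without any 1 library, with Cd4, Nkg7 and Igha lost without ESM1 (adjusted p = 0.0733, 0.127 and 0.0992). The other 10 calls of these lists were lost in 3 or 4 of the 5 leave-outs, by each of the 5 libraries for some gene, with adjusted p up to 0.194 (Trbc1 without ESM2). Without MKF2, 18 T and NK genes and 13 B and plasma cell genes rose, and without ESM1 1 and 2. Among 15 mast cell and granulocyte genes 3 rose, beside 13.8% of all tested genes. Ccr3, a receptor for eotaxins, was at 4.54, 3.78 and 3.67 against 0.737 and 0.854 CPM (1.79, adjusted p = 0.00112), while S100a8 lost its call without ESM2 (0.0704) and Csf3r without MKF1, MKF2 or ESM1 (up to 0.137).

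Proliferation genes were higher in the implants. Of 21 cell cycle genes 17 rose and none fell, with all 21 values positive and a median of 2.04. Mki67, the marker of cycling cells, was at 82.96, 78.3 and 79.02 against 9.70 and 8.54 CPM (3.07, SE 0.52, adjusted p = 0.00341), the mitotic cyclin gene Ccnb1 at 7.30, 7.04 and 7.43 against 0.624 and 0.626 CPM (2.79, adjusted p = 0.00293) and Pcna, the sliding clamp of DNA replication, at 93.3, 89.5 and 79.8 against 28.5 and 35.03 CPM (1.45, adjusted p = 0.00277). The implants were close to each other and far above both fat libraries. Cdkn2a, a cell cycle inhibitor linked to senescence, was low but rose as well, at 4.40, 3.00 and 1.83 against 0.454 and 0.228 CPM (2.04, adjusted p = 0.00465). The G1 cyclin gene Ccnd1 (74.4, 73.3 and 70.01 against 42.6 and 30.7 CPM) did not pass (adjusted p = 0.18), nor did Cdkn1a, where ESM2 was at the level of the implants (139, 136 and 137 against 36.5 and 141 CPM). Without ESM2 12 rose, with Birc5, Ccne1 and Cdk1 lost (0.0695, 0.104 and 0.0663), without ESM1 Mcm2 and Top2a were lost (0.0538 and 0.0504), Mcm3 was lost without either (0.0666 and 0.0718) and Bub1 with each of the 5 libraries left out (up to 0.102). With MKM2 as the only implant 1 of the 21 passed.

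**Figure D4:**
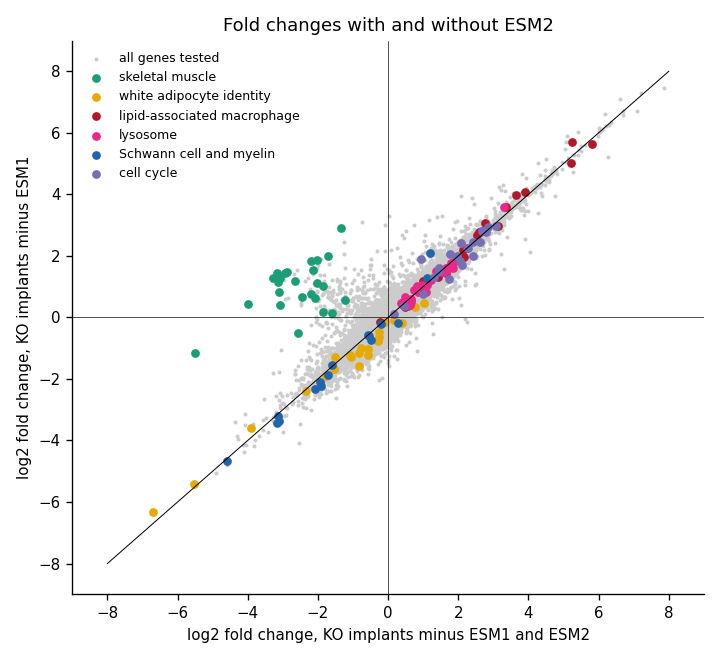
Log2 fold change of each tested gene with both subcutaneous fat libraries (horizontal axis) and with ESM1 alone (vertical axis), on the log2(CPM + 0.5) scale, with 6 gene lists in colour and a line of equality. Macrophage, lysosome, cell cycle and Schwann cell genes lie near the line, while skeletal muscle genes move from a median of -2.46 to 1.13.

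Muscle transcripts set ESM2 apart. None of 25 skeletal muscle genes passed, although all 25 had negative values with a median of -2.46. Without ESM2 the median was 1.13. Myl1, a myosin light chain, was at 19.8, 80.8 and 14.2 against 40.1 and 729 CPM (adjusted p = 0.182), with the groups overlapping, and Myh7, a slow myosin, at 0, 0.300 and 0.204 against 0 and 61.6 CPM (adjusted p = 0.253). Taking the muscle genes out of the library totals gave 3641 called genes, of which 3489 were among the 3547.

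Collagen genes, of the fibrous matrix, had mostly positive values, but none of the 20 passed, with a median of 0.58 and 17 values positive. The fibrillar genes Col1a1 and Col3a1 were at 3642, 4813 and 3934 against 2192 and 2702 CPM and at 7795, 9697 and 7110 against 4838 and 6125 CPM (adjusted p = 0.229 and 0.219), higher in every implant than in either fat library. The closest to the threshold were Col18a1 (654, 694 and 787 against 486 and 460.5 CPM, adjusted p = 0.0561) and Col5a2 (739, 908 and 722 against 473 and 562 CPM, adjusted p = 0.0684). Of 22 genes of other matrix proteins 4 rose and 2 fell, beside 13.8% and 6.02% of all tested genes, and without ESM2 1 rose and 1 fell. Cilp, a cartilage and fibrous tissue protein, was at 160.5, 376 and 224 against 7.49 and 9.74 CPM (4.72, SE 0.71, adjusted p = 0.00174), and Comp, a tendon and cartilage protein counted with the cartilage and bone genes, at 96.2, 84.7 and 107 against 6.69 and 11.4 CPM (3.37, SE 0.54, adjusted p = 0.0025). MKF2 had the highest Cilp and MKM2 the highest Comp. The small proteoglycan gene Bgn was at 1238, 1475 and 1162 against 504 and 339 CPM (1.64, adjusted p = 0.0163), lost without ESM2 (0.112), and osteoglycin, Ogn, at 81.9, 108 and 118 against 224 and 216 CPM (-1.11, adjusted p = 0.0051). Sfrp2, which fell, was lost without ESM2 (0.0711), as were Fmod (also without MKF1 or MKM2, up to 0.126) and Postn (also without MKF1, MKF2 or ESM1, up to 0.145).

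Of 20 genes of matrix proteases and inhibitors 5 rose and 3 fell, with and without ESM2. Mmp12 and Mmp9, given above, are among them. Adam8, a membrane protease of myeloid cells, was at 444, 536 and 441 against 8.51 and 20.96 CPM (5.09, SE 0.37, adjusted p = 7e-05). Timp4, the inhibitor made by adipocytes, was at 66.4, 66.1 and 72.9 against 257 and 286 CPM (-1.98, adjusted p = 0.000524) and Timp3, which is bound to matrix, at 246, 283 and 262 against 741 and 437 CPM (-1.11, adjusted p = 0.00608), while Timp1 rose to 13.5, 19.02 and 19.1 against 1.81 and 5.18 CPM and lost its call without MKM2 or ESM1 (up to 0.129). The urokinase gene Plau lost its call without MKF1, MKF2, ESM1 or ESM2 (up to 0.113) and with median-of-ratios scaling (0.0505). Mmp13, collagenase 3, was at 0.966, 1.29 and 1.22 against 0.113 and 0.228 CPM (1.31) and fell under the filter on low genes without MKF2 or MKM2.

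Progenitor genes were lower in part. Of 18 genes of fat progenitors 7 fell and 2 rose, with a median of -0.62, while 2 fell and 3 rose without ESM2, and 4 fell without ESM1 or without MKF1. Dpp4, which marks early progenitors of the tissue's connective sheath, was at 11.6, 34.1 and 19.7 against 90.2 and 83.8 CPM (-2.10, SE 0.38, adjusted p = 0.00492), and Pi16, found in the same cells, at 52.8, 232 and 128 against 438 and 364 CPM (-1.78, adjusted p = 0.04). For both genes MKF1 was the lowest and MKF2 the highest implant. Opcml was at 1.93, 3.99 and 2.65 against 10.6 and 15.5 CPM (-2.04, adjusted p = 0.00284), and Bst1 rose, at 12.6, 13.4 and 11 against 2.04 and 4.61 CPM (1.83, adjusted p = 0.00551). The broad marker Pdgfra, a receptor on most of these cells, was at 98.5, 162 and 127 against 162 and 199 CPM and did not pass (adjusted p = 0.249). Only Dpp4, Opcml and Bst1 kept their calls without any 1 library. Efhd1 and Ly6a were lost without ESM2 (0.0545 and 0.0718), Apod without ESM1 (0.0783), and Pi16, Dpt and Anxa3 in 3 or 4 of the 5 leave-outs (up to 0.151, 0.0714 and 0.125).

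Vessel genes differed in few members. Of 20 genes of blood vessel endothelium 2 fell and none rose, beside 6.02% and 13.8% of all tested genes. Flt1, the VEGF receptor 1, was at 108, 101 and 94.8 against 218 and 197 CPM (-1.03, SE 0.12, adjusted p = 0.000485) and Tek, the angiopoietin receptor, at 46.2, 55.03 and 43.5 against 116 and 97.96 CPM (-1.14, adjusted p = 0.00134). The general endothelial genes Pecam1 and Cdh5 were at 267, 239.5 and 249 against 273 and 246 CPM and at 384, 359.7 and 315 against 433 and 298 CPM, overlapping in both (adjusted p = 0.877 and 0.949). Without ESM2 4 of the 20 fell, and with median-of-ratios scaling 5. Of 14 mural cell genes only Rgs5, of pericytes, fell, by 0.62, beside the same 6.02% of all tested genes. It lost its call without MKF1, MKF2, MKM2 or ESM1 (up to 0.21). Of 8 lymphatic genes only Lyve1, described with the macrophages, passed.

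Genes of myelinating Schwann cells, which wrap the nerves of the tissue, fell together. Of 16 genes 10 fell and none rose, where 6.02% of all tested genes fell, and the list's median was -1.65. Without ESM2 9 fell and 1 rose, and with MKM2 as the only implant 6 fell. Periaxin, Prx, a protein of the myelin sheath, was at 5.51, 7.08 and 10.03 against 83.95 and 57.3 CPM (-3.16, SE 0.30, adjusted p = 0.000154) and its partner Drp2 at 2.75, 4.81 and 7.84 against 54.2 and 37.5 CPM (-3.12, adjusted p = 0.000551). In both genes the order over the implants was MKF1, MKF2, MKM2 from low to high, and every implant was far under both fat libraries. Myelin basic protein, Mbp, which other cells also express, was at 76.5, 88.1 and 81.1 against 304 and 237 CPM (-1.71, adjusted p = 8.36e-05). Scn7a, the sodium channel of nonmyelinating Schwann cells, was at 97.5, 90.9 and 96.5 against 278 and 298 CPM (-1.60, adjusted p = 0.00217). Pmp22, Mag, S100b, Egr2, Ngfr and Erbb3 did not pass. Sox10, the regulator of glial identity (-1.92), and Cdh19 lost their calls without ESM1 (0.0764 and 0.051), and Cnp with each of the 5 libraries left out (up to 0.109).

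Neuronal genes did not follow the glial ones. Of 16 genes of sensory and sympathetic neurons 4 rose and none fell, all of them low, and 1 rose without ESM2. Dbh, of noradrenaline synthesis, was at 1.11, 0.987 and 1.17 against 0 and 0 CPM, which is at least 12.7-fold higher against a floor of 3 reads over both fat libraries (adjusted p = 0.00108). The neurofilament gene Nefh was at 1.35, 1.25 and 3.67 against 0.227 and 0.285 CPM and lost its call without MKM2, ESM1 or ESM2 (up to 0.096) and with edgeR (0.0734), Prph without ESM2 (0.135) and Scn10a without MKF2, ESM1 or ESM2 (up to 0.154). Scn10a, a sodium channel of pain neurons, was at 0.290, 0.901 and 3.46 against 0 and 0 CPM and the filament gene Prph at 1.93, 1.37 and 4.58 against 0.681 and 0.228 CPM, highest in MKM2 in both cases. Of 10 genes of neurotrophins and axon guidance 1 rose and 1 fell, beside 13.8% and 6.02% of all tested genes. Slit2 rose (32.9, 48.6 and 33.8 against 12.4 and 9.51 CPM) and Slit3 fell (218, 331 and 225 against 611 and 452 CPM). Slit2 lost its call without ESM2 (0.0871) and Slit3 without ESM1 (0.071).

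Genes that record body position differed between the implants and subcutaneous fat. Of 33 tested Hox genes 10 fell and 2 rose, with a median of -0.61, and 9 fell and 1 rose without ESM2, and 6 fell and 1 rose without ESM1. In the HoxC cluster on chromosome 15, 6 of 7 tested genes fell. Hoxc8 (chromosome 15, 102990607 to 102994111, plus strand) was at 20.6, 16.01 and 18.2 against 95.1 and 64.98 CPM (-2.08, SE 0.28, adjusted p = 0.000987), Hoxc6 at 9.42, 10.8 and 9.93 against 47.2 and 38.9 CPM (-2.04, adjusted p = 5.78e-05) and Hoxc10 at 4.40, 5.24 and 3.51 against 20.9 and 21.2 CPM (-2.16, adjusted p = 0.00523). Among genes of the last position, which mark the ends of limbs and trunk, 2 rose. Hoxa13 was at 2.08, 1.59 and 2.95 against 0 and 0 CPM, with no read in either fat library, which makes it at least 25.4-fold higher (2.40, adjusted p = 0.000992), and Hoxd13 was at 0.918, 0.644 and 3.82 against 0 and 0 CPM. Implants of wildtype cells also held Hoxa13, at 1.02 to 3.28 CPM (KO minus wildtype 0.31, adjusted p = 0.47 in limma), and visceral fat held up to 5.76 CPM. Hoxd13 lost its call without MKF1, MKM2, ESM1 or ESM2 (up to 0.128), Hoxa7 and Hoxb2 without ESM1 (0.0566 and 0.0851), Hoxc4 without MKF1, MKM2 or ESM1 (up to 0.235) and Hoxa5 without MKF1, MKF2, ESM1 or ESM2 (up to 0.151). The tested genes from Hoxd4 to Hoxd11 did not pass, with Hoxd8 at 15.7, 19.5 and 18.2 against 21.7 and 25.2 CPM (adjusted p = 0.363).

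**Figure D5:**
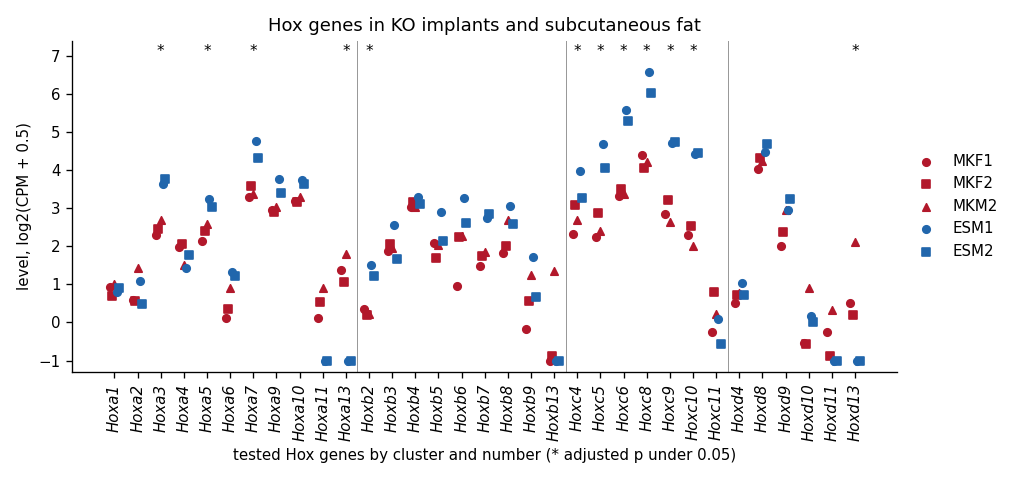
Levels of the 33 tested Hox genes on the log2(CPM + 0.5) scale in each KO implant (red) and subcutaneous fat library (blue), ordered by cluster and number, with asterisks at an adjusted p under 0.05. The blue points stand above the red ones for Hoxc4 to Hoxc10. Among the libraries shown, Hoxa13 and Hoxd13 are read only in the KO implants.

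Of 34 other transcription factor genes that differ between fat depots 5 rose and 4 fell, beside 13.8% and 6.02% of all tested genes, so that the rising share is near that of all genes. Without ESM2 3 rose and 3 fell, and without ESM1 1 rose and 1 fell. Besides Zic1, Shox2, of limb and trunk mesenchyme, was at 10.3, 13.4 and 8.76 against 26.8 and 23.8 CPM (-1.20, adjusted p = 0.0102), lost without ESM1 (0.0628), and Gata6 at 9.32, 8.93 and 14 against 18.7 and 20.8 CPM (-0.88, adjusted p = 0.00864), lost without ESM2 (0.0603). Tbx15, high in subcutaneous fat, was at 16.96, 28.3 and 18.1 against 30.2 and 62.1 CPM and did not pass (adjusted p = 0.129). Only Zic1 of the 9 kept its call without any 1 library. Wt1, of visceral fat and mesothelium, was at 0.435, 0.0858 and 2.90 against 0.170 and 0.114 CPM, highest in MKM2, and of 10 mesothelial genes Lrrn4 fell (0.580, 0.215 and 0.509 against 3.74 and 1.65 CPM, adjusted p = 0.00569), as did Rspo1 until any of MKF1, MKF2, ESM1 and ESM2 was left out (up to 0.137).

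Growth factor systems changed in single genes. Of 13 genes of the insulin-like growth factor system 2 rose and 3 fell. Over all tested genes the shares were 13.8% and 6.02%, so the rising share is near that of all genes. Without ESM2 2 of the 13 rose and none fell. Igf2r, which clears IGF2 and carries enzymes to lysosomes, was at 323, 354 and 312 against 189 and 110.4 CPM (1.19, SE 0.22, adjusted p = 0.00553). Igfbp5, a binding protein, was at 478, 812 and 617 against 1360 and 1436 CPM and lost its call without MKF1, ESM1 or ESM2 (up to 0.0864). Igfbp6 and Stc2 also fell, Igfbp6 lost without MKF1 or ESM2 (up to 0.181) and Stc2 without MKF1, MKM2, ESM1 or ESM2 (up to 0.148), while Igfbp2 rose, lost without ESM1 (0.0688). Of 19 genes of TGF-beta and BMP signalling 3 rose, with Tgfb1 and its receptor gene Tgfbr1 at 78.95, 63.1 and 76.6 against 37.4 and 31.6 CPM (1.07, adjusted p = 0.000775), and 3 fell, with Bmp6 at 23.96, 19.1 and 20.9 against 53.1 and 46.5 CPM (-1.21, adjusted p = 0.00215) and the latency protein gene Ltbp1 at 17.2, 39.5 and 37.1 against 95.2 and 98.8 CPM (-1.71, adjusted p = 0.00464). The rising share is near the 13.8% of all tested genes that rose, and without ESM2 2 of the 19 rose and 2 fell. Nog, a BMP antagonist that rose, lost its call with each of the 5 libraries left out (up to 0.177), with edgeR (0.074) and with median-of-ratios scaling (0.0538), and Tgfbr3, which fell, without ESM2 (0.0821). Of 16 imprinted genes 3 rose and 2 fell, beside the same 13.8% and 6.02% of all tested genes. Meg3, a long noncoding RNA, was at 76.97, 105 and 138 against 33.3 and 23.6 CPM, and lost its call without MKM2, ESM1 or ESM2 (up to 0.121). Mest, which is known to rise as fat expands, and Peg3 parted the fat libraries, with Mest at 619, 698 and 484 against 654 and 23.4 CPM (adjusted p = 0.249) and Peg3 at 278, 225 and 254 against 754 and 80.3 CPM (adjusted p = 0.985). ESM2 was the lowest library for both.

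Few genes of core metabolism and the clock passed with all 5 libraries. Of 28 genes of mitochondrial respiration 2 fell, Sdha and Ndufb9, a share near the 6.02% of all tested genes that fell. Both calls were lost without ESM2 (adjusted p = 0.117 and 0.263). Sdha also lost its call without MKF2 or MKM2, and Ndufb9 without any 1 of the implants. Without ESM1 4 of the 28 fell, and without ESM2 1 rose and none fell. Of 14 clock genes only Nr1d1, the repressor REV-ERB alpha, fell, beside the same 6.02% of all tested genes. It was at 83.7, 101 and 90.3 against 307 and 184 CPM (-1.37, SE 0.21, adjusted p = 0.00167). Dbp, a rhythmic gene, was at 29.4, 31.1 and 31.4 against 78.8 and 8.09 CPM and parted the fat libraries (adjusted p = 0.868). Without ESM2, 2 of the 14 clock genes rose and 5 fell.

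Transcripts of other organs varied widely among the implants. Of 13 liver genes 7 rose and 1 fell, but none passed without MKF1, ESM1 or ESM2, and 11 rose without MKF2. The apolipoprotein gene Apoa1 was at 147, 4.42 and 812 against 0.113 and 0.683 CPM (adjusted p = 0.0188), and the fibrinogen gene Fga at 81.2, 1.54 and 402 against 0 and 0 CPM (adjusted p = 0.0256), in both cases highest in MKM2 and lowest of the implants in MKF2. Of 10 lung genes 3 rose. The surfactant genes Sftpc and Sftpb were at 6.28, 5.32 and 11.8 against 0 and 0 CPM and at 5.32, 2.66 and 6.11 against 0 and 0 CPM, at least 89.6-fold and 53.8-fold higher (adjusted p = 0.000267 and 0.000283), while Sftpa1 was lost without ESM2 (0.0584). The lung markers summed to 7.98 to 20.1 CPM in the implants and to 0.227 and 0.228 CPM in ESM1 and ESM2. Keratinocyte markers went the other way within the fat, at 52.4 CPM in ESM2, 1.87 CPM in ESM1 and 1.59 to 7.69 CPM in the implants.

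Further genes with the largest changes fell outside these lists. Myh15, a myosin heavy chain, was at 37.8, 43.7 and 34.01 against 0.0567 and 0.057 CPM, the largest rise under the naming rule, which leaves out genes whose libraries differ widely within a side (6.12, SE 0.25, adjusted p = 9.81e-06). Both fat libraries held 2 reads of Myh15 in all, and the count ratio was 682 (95% counting interval 189 to 5638). Gdf3, a ligand of the TGF-beta family, was at 47.1, 55.6 and 30.5 against 0.170 and 1.08 CPM (5.40, adjusted p = 0.000189). Vsig8, an immunoglobulin-domain protein, was at 51.8, 51.8 and 56.1 against 0.964 and 1.08 CPM (5.14, adjusted p = 7e-05), and Rnf128, a ubiquitin ligase that restrains T cells, at 104, 94.3 and 121 against 1.30 and 4.78 CPM (5.11, adjusted p = 0.000126). Lcn2, lipocalin 2, which binds iron carriers of bacteria, was at 77.7, 47.3 and 115 against 1.19 and 2.62 CPM (5.04, adjusted p = 0.00582) and varied most of these among the implants. Among the genes that fell, Sult1e1, which inactivates estrogens, was at 0.193, 0 and 0.611 against 7.20 and 28.5 CPM (-4.36, adjusted p = 0.00178), and Fam13a, a locus known for fat distribution, at 21.98, 18.9 and 23.5 against 246 and 553 CPM (-4.08, adjusted p = 0.00195). The adhesion receptor gene Celsr2 was at 4.40, 3.82 and 6.87 against 111 and 76.6 CPM (-4.11, adjusted p = 0.00148), the neutrophil protease gene Prtn3 at 1.45, 1.33 and 1.53 against 29.2 and 47.5 CPM (-4.29, adjusted p = 7e-05) and the orphan receptor gene Mrgprg at 0, 1.07 and 0.204 against 11.4 and 21.5 CPM (-4.30, adjusted p = 0.00244). In all of these the implants and the fat libraries did not overlap, which the naming rule required.

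For the same genes, the fit also compared the KO implants with 4 implants of wildtype (WT) cells, MWF1, MWF2, MWM1 and MWM2, grown and treated in the same way per the labels. Since both comparisons use the same 3 KO libraries, their values are set side by side only. Against WT implants 2782 genes passed (15.6%), 1603 higher (8.97%) and 1179 lower (6.6%). The count of 2782 was 1537 without MKF1, 1233 without MKF2, 1626 without MWM1 and 1406 without MWM2. Macrophage and lysosome genes were higher in the KO implants in both comparisons, with 15 of 18 lipid-associated macrophage genes and 32 of 35 lysosome genes higher than in WT implants. Trem2 was at 8.02 to 56.3 CPM in the WT implants (log2 fold change, KO minus WT, 3.98, adjusted p = 8.91e-05), under every KO implant. Itgax was at 30.02 to 68.1 CPM there (3.07, adjusted p = 0.000148). Of the adipocyte products, Cfd was at 1223 to 2210 CPM in the WT implants (-3.93, adjusted p = 6.73e-05), under both subcutaneous fat libraries and above all KO implants, as was Adrb3 at 87.5 to 171 CPM (-3.75, adjusted p = 0.0011).

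For some other lists the counts are given for both comparisons. Of the 16 sensory and sympathetic neuron genes 4 were higher than in subcutaneous fat, and 10 were lower than in WT implants. Of the 10 lung genes 3 were higher than in subcutaneous fat, and 6 were lower than in WT implants. Of the 16 Schwann cell genes 10 were lower than in subcutaneous fat, and 7 were lower and 2 higher than in WT implants. Of the 21 cell cycle genes 17 were higher than in subcutaneous fat and 2 higher than in WT implants, where Mki67 had a log2 fold change of 0.67 (adjusted p = 0.321). Of the 28 T and NK lymphocyte genes 11 were higher than in subcutaneous fat, and 6 were lower than in WT implants, in which Cd4 ranged from 2.87 to 98.2 CPM. Among the 10 MHC class II genes 7 were higher than in subcutaneous fat and none passed against WT implants (Cd74 0.03, adjusted p = 0.931). Hox genes were lower in 10 members against subcutaneous fat and in 4 against WT implants, where Hoxc9 had a log2 fold change of -0.11 (adjusted p = 0.693), beside -1.82 against subcutaneous fat. Of the 14 insulin genes 5 were lower than in subcutaneous fat and 3 lower than in WT implants, with Irs1 at 26.99 to 45.4 CPM there (-1.10, adjusted p = 0.0201) and Slc2a4 at 120.1 to 173 CPM (-1.01, adjusted p = 0.0175). Of the 14 lipolysis genes 5 were lower than in subcutaneous fat and 1 lower than in WT implants, where Pnpla2 was at 1145 to 2095 CPM (-0.23, adjusted p = 0.432). Lep was at 806 to 2675 CPM in the WT implants (0.13, adjusted p = 0.768). Whether the changes differ in size between the 2 comparisons was not tested.

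The KO implants were alike in most genes, with MKF2 and MKM2 the furthest apart. Across genes, the Pearson correlation on the log2 scale was 0.97 for MKF1 with either other implant and 0.942 for MKF2 with MKM2. For comparison, it was 0.939 for MKF2 with ESM1 and 0.949 for MKM2 with the WT implant MWM1. The median SD over the 3 implants was 0.15 on the log2 scale, against 0.20 for the 2 fat libraries. By more than 4-fold, MKF1 stood apart from both other implants in 25 genes, MKF2 in 293 and MKM2 in 332, while ESM1 and ESM2 differed by more than 4-fold in 382 genes, 319 of them higher in ESM2. MKF2 was the implant with muscle transcripts, with the fast myosin gene Myh4 at 0.242, 1079 and 0.0509 against 16.5 and 6937 CPM. The macrophage genes Gpnmb, Trem2 and Cd68, chosen after their values were seen, differed by less than 1.5-fold among the implants, with Cd68, a lysosomal protein of macrophages, at 720.2, 843 and 632 against 59.7 and 82.7 CPM.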

How the data were processed

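The authors deposited 1 table of normalised read counts (CPM) for 54658 genes in 16 libraries. Tools named per the submitters' processing notes are featureCounts (Subread 1.6.3), STAR 2.5.4, cutadapt 2.7 and FastQC 0.11.4, with mm10 as the build. The strand setting is not given in the sources used here, so overlapping and antisense genes are uncertain, as are close copies such as immunoglobulin, MHC and Cd300 genes. All nonzero CPM values were whole multiples of 1 read (within 0.001 reads), and this gave depths of 16444965 to 25805502 reads over the 16 libraries. Intervals and the floor of 3 reads cover counting error only.

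The 17871 genes that reached 1 CPM in 2 or more of 14 libraries were tested with limma 3.58.1 (R 4.3.3, trend, robust) on log2(CPM + 0.5), with MKF1, MKF2 and MKM2 as 1 class, the other groups estimated beside it, and Benjamini-Hochberg adjustment over all genes at 0.05. Named genes were Lep, Lepr, Cfd, Adipoq and Pparg, up to 4 members a list by adjusted p (2 where none passed), and the 10 rising and 10 falling genes of largest fold whose higher side averaged 10 CPM or more, with groups that did not overlap, libraries of each side within 2 of each other on that log2 scale and a symbol other than a predicted gene, Xist or a Y gene, and further members were named after their values were seen. The libraries, lists and rule were chosen with earlier results of these data known. Alternatives changed the pseudocount, filter, scaling, weights, replicate block and libraries, and used edgeR 4.0.16 and DESeq2 1.42.0 on the recovered reads. The code was tested on simulated data. Values of some single genes, counted in their lists, are not reported here.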

Additional observations from a re-analysis of the deposited data

Results flagged for a closer look

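Both libraries left out of the comparison carried signals that their labels do not give. In the library labelled EVFN1, a visceral fat code, Gpnmb was at 3933 CPM, above all 3 KO implants, and the library was nearer to the KO implants than to subcutaneous fat in 20 of 20 of the most changed genes, with Cfd at 81.8 CPM. In the library labelled MKM1, a KO implant code, the mesothelial gene Upk3b was at 200.4 CPM, and the library was nearer to subcutaneous fat in 17 of the 20, with Cfd at 14068 CPM. The comparisons with EVFN1 kept and with MKM1 kept, each in a fit of its own, are given with the other settings.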

How the results depend on the processing

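The count of 3547 changed genes stayed within 1.5 times under the other pseudocounts, no filter, other scalings, quality weights, the compared libraries alone, separate MKF and MKM groups, edgeR (3537), DESeq2 (4972) and MKF1 with MKF2 alone (2549). It was 1486 with EVFN1 kept (1075 higher, 411 lower), 146 with MKM1 kept (87 and 59) and 1286 with MKM2 as the only implant (1074 and 212), where the lone library is assumed to vary like the others. DESeq2 called 2123 genes lower. Leaving out 1 library at a time gave 2256 to 2841 changed genes, 1490 to 2114 higher and 639 to 766 lower. The count against WT implants was 4858 with quality weights, 927 with EVFN1 kept, 713 with MKM1 kept and 198 with MKM2 alone, and 1233 to 2666 with 1 library left out. EVFN1 is on neither side of the comparison with subcutaneous fat. With it kept, the median log2 fold changes of the lists did not move, at 2.61 for lipid-associated macrophage genes and 1.01 for lysosome genes. The smaller fits held fewer samples. The cause of these shifts was not tested.

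The replicate numbers are not said to pair samples, and MKF1 and ESM1 deviated from their groups with r = 0.34, MKF1 and MWF1 with r = -0.35. With the numbers as a replicate block 3466 genes differed from subcutaneous fat, of which 3278 were among the 3547, and 2703 from WT implants. Of 150 genes named by rule 142 passed. Median-of-ratios scaling ended 1 of these calls, edgeR 6, the block 5, pseudocount 2 ended 9, leaving out ESM1 or ESM2 33 each, EVFN1 kept 50 and MKM1 kept 126. Log2 fold changes of 2 uncalled genes turned without ESM2, for Myh7 to 0.39 (adjusted p = 0.879; -6.57 without ESM1) and for the calcium receptor gene Casr to 0.62 (adjusted p = 0.689; -2.17 without ESM1).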

Other observations

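Families outside the lists, chosen after their values were seen and so given as counts with no weight as evidence, also differed. Among innate immune receptors, 7 of 12 toll-like receptor genes were higher in the KO implants and none lower (6 without ESM2). Tlr13, which senses bacterial RNA, was at 124, 117 and 113 against 3.18 and 9.74 CPM (log2 fold change 4.27, SE 0.41), while Tlr4, the receptor for endotoxin, was at 38.9, 34.98 and 31.2 against 34.4 and 40.95 CPM (-0.10) with overlapping groups. Of 10 CD300 receptor genes 7 were higher (5 without ESM2), with Cd300a, an inhibitory receptor of myeloid cells, at 118, 117 and 102 against 15.1 and 11.4 CPM (3.05). Of 9 genes of the Clec4, Clec7 and Clec12 lectins 7 were higher (8 without ESM2), with Clec7a, the receptor for fungal glucan, at 96.2, 68.9 and 76.4 against 9.70 and 6.66 CPM (3.23). Of 7 genes of the phagocyte NADPH oxidase, which makes superoxide, 6 were higher with and without ESM2, and Cybb, its catalytic subunit, was at 225, 231 and 222 against 37.3 and 34.97 CPM (2.63).

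Some genes of steroid receptors and class 3 semaphorins were lower. Of 5 steroid receptor genes 3 were lower with and without ESM2. The estrogen receptor gene Esr1 was at 12.03, 14.9 and 16.9 against 65.1 and 66.8 CPM (-2.15, SE 0.33), with every implant, of either sex code, under both male fat libraries. Of 7 class 3 semaphorin genes 2 were lower with and without ESM2, Sema3e at 0.870, 1.76 and 1.17 against 16 and 22.1 CPM (-3.48) and Sema3b at 14.8, 25.03 and 21.7 against 74.1 and 74.7 CPM (-1.87).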
